A study of Mus musculus with 9 samples.

Results

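The genes described here are the Myc, Max and Mxd network, a set of 10 transcription factor genes measured by RNA-Seq in mouse embryonic fibroblasts (MEFs). They are *Myc*, *Max*, *Mnt*, *Mga*, *Mxd1*, *Mxd3*, *Mxd4*, *Mxi1*, *Mlx* and *Mlxip*, chosen by name, and all 10 were found among the 15184 genes of the deposited table. The 9 libraries of polyA+ RNA comprised 3 of MEFs with the empty vector (Empty), 3 titled SAM1 and 3 titled SAM2, and both SAM1 and SAM2 carry the genotype label Hnrnpk_SAM. The SAM system (synergistic activator mediator) brings transcriptional activators to the start of a chosen gene, here *Hnrnpk*, with the help of a guide RNA and a Cas9 that cannot cut. Wild-type MEFs from mouse embryos were transduced with lentiMPHv2 and with lentiSAMv2 carrying a guide, and were selected with blasticidin and hygromycin, while the control lentiSAMv2 carried a nontargeting guide. The methods describe 2 guides for *Hnrnpk*, the sample labels do not say which of them SAM1 or SAM2 carries, and the extract protocol mentions sgRNA2 cells and no other guide for *Hnrnpk*. The methods print 1 sequence for both the second of these guides and the nontargeting guide. Nothing says that libraries of one title came from separate cultures, so p-values measure only the spread between libraries, which may be technical.

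The proteins of the network work as pairs. Max is the shared partner: with Myc it activates genes of growth and division, and with the Mxd proteins (Mxd1, Mxi1, Mxd3 and Mxd4), Mnt or Mga it represses many of the same genes, so Myc and the repressors compete for Max and for DNA. Mlx is a Max-like partner, which pairs with Mlxip (MondoA), a sensor of glucose metabolites, and also with Mxd1, Mxd4 and Mnt. *Myc* and *Mxd3* are known for dividing cells, and *Mxd1*, *Mxi1* and *Mxd4* for differentiating or resting cells.

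These pairs recognise the E-box, whose preferred form is the palindrome CACGTG. It was searched from 250 bases before to 50 after the canonical start of each gene (GRCm39, GENCODE vM39). It was found in 4 of the 10 network genes and in 1409 of 14790 listed genes (9.53%). A match describes the sequence and does not show that a protein binds there. The 4 stretches of 30 bases are shown because the network binds this motif, which is in capitals, and each reads from 5′ to 3′ on the strand of its gene.
*Mxd4*, chr5:34345256-34345285, minus strand, motif from base -33: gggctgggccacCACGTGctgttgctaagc
*Mlx*, chr11:100978064-100978093, plus strand, motif from base -16: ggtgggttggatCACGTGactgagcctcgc
*Max*, chr12:77009008-77009037, minus strand, motif from base -25: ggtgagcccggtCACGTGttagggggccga
*Mxd3*, chr13:55477810-55477839, minus strand, motif from base -223: gcgtcccgcgcgCACGTGtagcccaggccg

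The deposited values are read counts that the authors divided by the size factor of each library, called normalized counts below. In the 8 libraries from which reads could be recovered, 41759636 to 49026626 reads fell on listed genes. Errors after ± are SDs over the 3 libraries of a group (n = 3). *Hnrnpk*, the targeted gene, had 25058 to 26164 normalized counts in Empty, 23619 to 24102 in the libraries labelled SAM1 and 26221 to 26859 in those labelled SAM2. Its RNA was lower in SAM1 (log2 fold change -0.11, limma, adjusted p 0.0025) and not called in SAM2 (0.044, limma, adjusted p 0.159). Over the 6 libraries labelled Hnrnpk_SAM it was not higher (-0.032, limma, adjusted p 0.642). The study reports raised *Hnrnpk* RNA by qRT-PCR and raised protein by Western blot in its SAM MEFs. Each direction below is thus relative to a label that the targeted RNA of these libraries does not bear out. All 14 genes of a list of fibroblast markers were listed, with summed levels of 1093164 to 1188370.3 in Empty, 915683 to 974349.9 in SAM1 and 1201349 to 1240189 in SAM2. Summed levels of markers of other cells differed between the groups. The sums were 2247 to 2427 in Empty, 7209 to 7734 in SAM1 and 2832 to 2918 in SAM2 for 4 of 8 epithelial genes, 1216 to 1271 in Empty, 5633 to 6061 in SAM1 and 1876 to 1969.8 in SAM2 for 5 of 6 endothelial genes, and 1487 to 1524 in Empty, 2513 to 2673 in SAM1 and 1756 to 1775 in SAM2 for 4 of 7 immune genes. They were 138 to 190.3 in Empty, 540.1 to 652 in SAM1 and 453 to 487 in SAM2 for 2 of 6 muscle genes and 2197 to 2358 in Empty, 8998 to 9169 in SAM1 and 8276 to 8463 in SAM2 for 4 of 6 neural genes, while *Epcam*, *Ptprc*, *Myod1* and *Sox10* were not among the listed genes. Single markers did not all follow these sums. In SAM2 against Empty, where 35.2% of all genes were called higher and 35.3% lower, 2 immune genes were called higher and 2 lower. There 1 epithelial gene was called higher and 1 lower, and 4 fibroblast genes higher and 6 lower. Of endothelial genes 3 were called higher and 1 lower there, and of neural genes 2 higher and 1 lower. In SAM1 37.3% of all genes were called higher and 36.9% lower. Of the 5 endothelial genes 3 were called higher in SAM1 and 2 not called, with a median log2 fold change of 0.24. Of fibroblast genes 4 were called higher in SAM1 and 10 lower. The part of these markers in the results was not tested, and in bulk RNA fewer cells of a type and less RNA per cell cannot be told apart.

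In SAM1 every network gene differed from Empty, with 7 lower and 3 higher, and in SAM2 4 were lower, 3 higher and 3 not called. The test was limma on log2(normalized count + 1), fitted to all 15184 genes and 3 groups, and a call needed a Benjamini-Hochberg adjusted p under 0.05. A call was common in these data: 74.3% of all genes were called in SAM1 (37.3% higher, 36.9% lower) and 70.5% in SAM2 (35.2% higher, 35.3% lower). The groups did not overlap in 8 network genes in SAM1 (3 above Empty and 5 below it) and in 7 in SAM2 (3 above and 4 below). Over all genes this held for 74.4% in SAM1 (37.3% above, 37.1% below) and 73.5% in SAM2 (36.7% above, 36.8% below), so these shares alone say little about the network. The median log2 fold change of the members was -0.21 in SAM1 and -0.018 in SAM2, against 0.0093 and -0.0015 for all genes. *Mnt*, *Mxd1* and *Mxd3* were called higher in both lines, and *Myc*, *Max*, *Mxd4* and *Mlx* lower in both. *Mga*, *Mxi1* and *Mlxip* were called lower in SAM1 and not called in SAM2. Both comparisons use the same 3 Empty libraries.

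**Figure D1:**
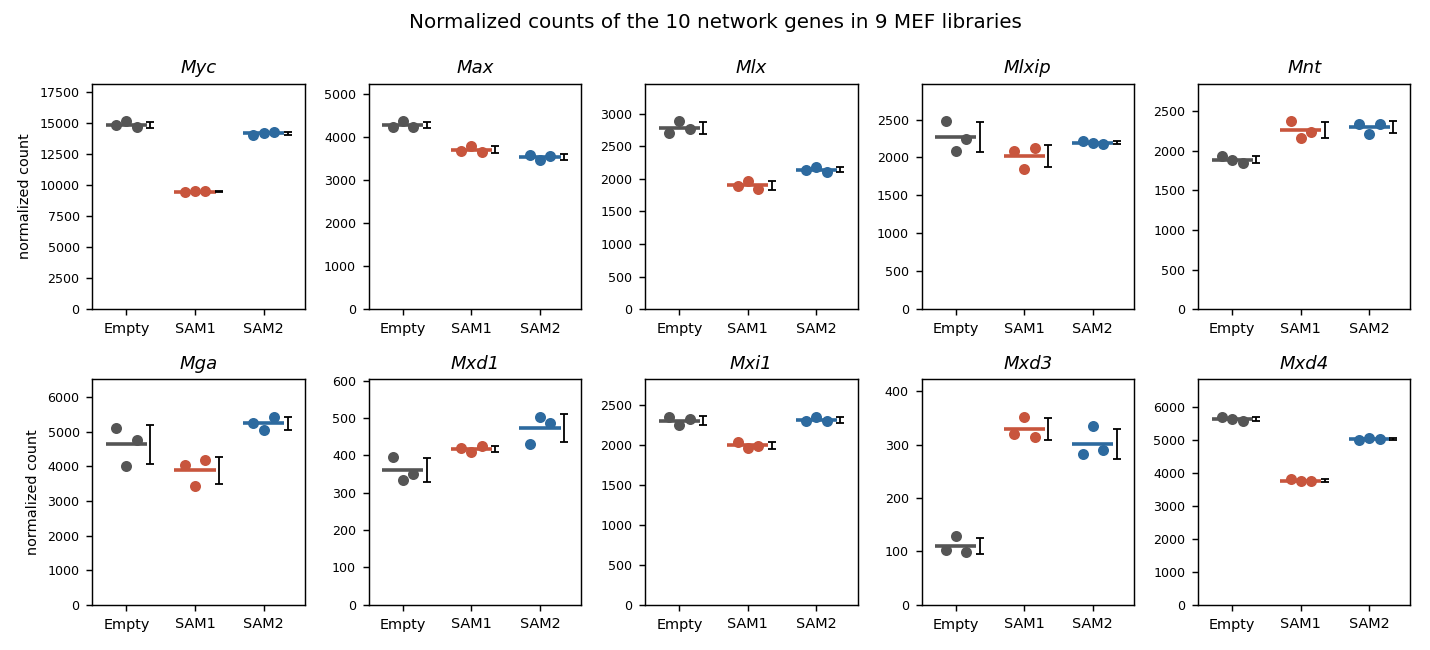
Normalized counts (vertical axes, from 0) of the 10 network genes in the 3 libraries each of Empty, SAM1 and SAM2; points are libraries, lines are group means and bars are ± 1 SD. *Myc* and *Mxd4* were low in SAM1 with no overlap, and *Mxd3* was high in all 6 libraries labelled Hnrnpk_SAM.

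*Myc* (ENSMUSG00000022346.19, chr15:61857227-61862223, plus strand, protein coding like the other members) drives growth and division. It had 14778, 15113 and 14629 in Empty, 9389, 9524 and 9466 in SAM1, and 13969, 14198 and 14210.2 in SAM2, as normalized counts. The 3 groups did not overlap, with SAM1 far below the others and SAM2 just below Empty. In SAM1 *Myc* was at 63.7% of its Empty mean, and its log2 fold change was -0.65 with a standard error of 0.025 (limma, adjusted p 5.53e-11). In SAM2 it was at 95.2%, and its log2 fold change was -0.071 (limma, adjusted p 0.0218). This small difference was not called in 5 alternatives. In 4 of them its size changed little: it was -0.058 without Empty replicate 2 (limma, adjusted p 0.0646), -0.063 without SAM2 replicate 1 (limma, adjusted p 0.0885), -0.065 by edgeR (adjusted p 0.0852) and -0.062 by DESeq2 (adjusted p 0.129) on recovered reads. Quantile normalization turned the value to 0.028 (limma, adjusted p 0.348). The lines differed from each other by 0.58 (limma, adjusted p 6.22e-10). By Western blot the study reports higher c-MYC protein in its HNRNPK-overexpressing cells, whereas the values here are of RNA.

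*Max* (ENSMUSG00000059436.15, chr12:76984043-77009009, minus strand) encodes the obligate partner of Myc and of the Mxd proteins. Its normalized counts were 4233, 4376 and 4250.0 in Empty, 3689, 3806 and 3651 in SAM1, and 3595, 3468 and 3564 in SAM2. All 6 libraries labelled Hnrnpk_SAM lay below Empty, and SAM2 lay lowest. The log2 fold changes were -0.21 in SAM1 (limma, adjusted p 3.91e-05) and -0.28 in SAM2 (limma, adjusted p 2.93e-06). Between the lines it was -0.069 (95% interval -0.14 to -0.0026, limma, adjusted p 0.0679), which did not pass the threshold, and with quantile normalization -0.11, which did (adjusted p 0.00881).

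**Figure D2:**
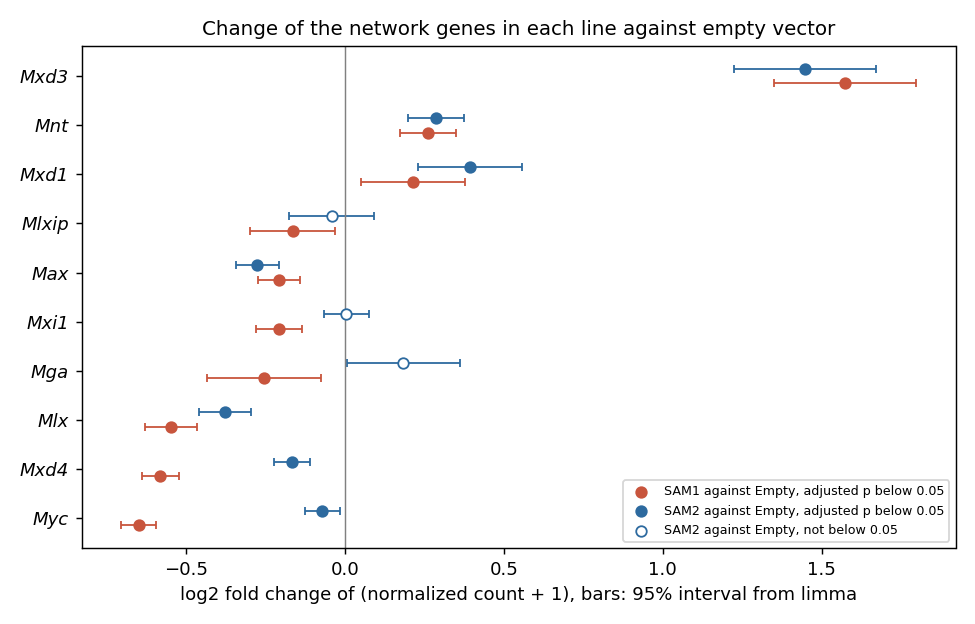
Log2 fold change of each network gene (horizontal axis) in SAM1 and in SAM2 against Empty, with 95% intervals from limma; filled points passed the adjusted threshold of 0.05. *Mxd3* stood apart at 1.57 and 1.45, and the lines lay furthest from each other in *Myc*, *Mga* and *Mxd4*.

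*Mlx* (ENSMUSG00000017801.17, chr11:100978080-100983043, plus strand) encodes the Max-like partner of the Mondo proteins. Its normalized counts were 2699, 2884 and 2764 in Empty, 1895, 1973 and 1839 in SAM1, and 2142, 2179.9 and 2101 in SAM2. The 3 groups did not overlap, and Empty was highest. *Mlx* fell to 68.4% of its Empty mean in SAM1 and to 76.9% in SAM2, with log2 fold changes of -0.55 (limma, adjusted p 2.11e-08) and -0.38 (limma, adjusted p 1.09e-06). The lines differed by 0.17 (limma, adjusted p 0.0017). In the annotation 1109 bases of its exons are also exons of *Psmc3ip* on the opposite strand, and whether reads were counted by strand is not given in the sources used here. *Psmc3ip* had mean normalized counts of 409 ± 49.7 in Empty, 549.6 ± 66.9 in SAM1 and 480.2 ± 6.80 in SAM2. The part of its reads in the counts of *Mlx* was not tested.

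*Mlxip* (ENSMUSG00000038342.17, chr5:123532794-123595995, plus strand) encodes MondoA. Its normalized counts were 2478, 2083 and 2237 in Empty, 2091, 1851 and 2122 in SAM1, and 2218, 2196 and 2174 in SAM2. Each line overlapped with Empty, and SAM2 lay above SAM1. The log2 fold change in SAM1 was -0.16 (limma, adjusted p 0.0283). That call was lost without Empty replicate 1 (-0.10, adjusted p 0.132), Empty replicate 3 (-0.17, adjusted p 0.0573) or SAM1 replicate 2 (-0.10, adjusted p 0.118), and with quantile normalization (-0.13, adjusted p 0.0749). In SAM2 it was -0.042 (95% interval -0.18 to 0.092, limma, adjusted p 0.563), and without Empty replicate 1 0.025. Between the lines it was 0.12 (limma, adjusted p 0.104), which passed without Empty replicate 1 (adjusted p 0.0478) and came down to 0.060 without SAM1 replicate 2.

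Among the Mxd genes, *Mxd3* rose in both lines while *Mxd4* fell in both. *Mxd3* (ENSMUSG00000021485.16, chr13:55472981-55477908, minus strand), a repressor gene known for its expression in S phase, had 103, 128 and 99.3 in Empty, 319.9, 352 and 313 in SAM1, and 282, 334 and 289 in SAM2, as normalized counts. All 6 libraries labelled Hnrnpk_SAM lay far above Empty, and the lines overlapped. The mean was 2.98-fold that of Empty in SAM1 and 2.74-fold in SAM2. The log2 fold changes were 1.57 with a standard error of 0.10 (limma, adjusted p 1.23e-08) and 1.45 (limma, adjusted p 3.70e-08). Between the lines it was -0.12 (95% interval -0.35 to 0.10, limma, adjusted p 0.318). Beside it, all 16 genes of a proliferation list were called higher in both lines, against 37.3% of all genes in SAM1 and 35.2% in SAM2. Their medians were 1.15 and 1.12. Their summed normalized counts were 38702 to 38970.2 in Empty, 79042 to 79674 in SAM1 and 75648 to 76332 in SAM2. The part of these 16 genes in the level of *Mxd3* was not tested. In its SAM MEFs the study reports more cells in the G2/M phase of the cell cycle, polyploid cells and staining for senescence. RNA levels of the list do not count dividing cells. *Mxd3* shares 876 bases of exon with *Prelid1* on the opposite strand. *Prelid1* had mean normalized counts of 10807 ± 789.9 in Empty, 12334 ± 646 in SAM1 and 8353 ± 105 in SAM2, far more than *Mxd3*. The part of reads from *Prelid1* in the counts of *Mxd3* was not tested.

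*Mxd4* (ENSMUSG00000037235.15, chr5:34331227-34345240, minus strand) had the highest level per length of the Mxd genes. Its normalized counts were 5704, 5634 and 5582 in Empty, 3813, 3753 and 3747 in SAM1, and 4994, 5065 and 5023 in SAM2. The groups were widely separated, in the same order as for *Myc*. The log2 fold changes were -0.58 in SAM1 (limma, adjusted p 2.86e-10) and -0.17 in SAM2 (limma, adjusted p 8.26e-05), and the lines differed by 0.41 (limma, adjusted p 2.48e-08).

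*Mxi1* (ENSMUSG00000025025.16, chr19:53298852-53364241, plus strand), also called Mxd2, had 2346, 2241 and 2317 in Empty, 2034, 1955 and 1984 in SAM1, and 2289.5, 2345 and 2290.0 in SAM2, as normalized counts. SAM1 lay below the other groups, and SAM2 lay within the range of Empty. The log2 fold change was -0.21 in SAM1 (limma, adjusted p 7.46e-05) and 0.0047 in SAM2 (95% interval -0.067 to 0.077, limma, adjusted p 0.909). The lines differed by 0.21 (limma, adjusted p 0.000105). The lncRNA gene *Gm30541*, which shares 349 exon bases with *Mxi1* on the opposite strand, had mean normalized counts of only 6.69 ± 2.91 in Empty, 15.8 ± 4.04 in SAM1 and 12.3 ± 4.66 in SAM2.

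*Mxd1* (ENSMUSG00000001156.11, chr6:86624024-86646218, minus strand), the first Mxd gene described, had 396, 333 and 350.5 in Empty, 419, 408 and 424 in SAM1, and 430.2, 503 and 485 in SAM2, as normalized counts. Empty was lowest and SAM2 highest, with no overlap. The log2 fold changes were 0.22 in SAM1 (limma, adjusted p 0.0202) and 0.39 in SAM2 (limma, adjusted p 0.000401). The SAM1 value was not called without Empty replicate 2 (0.16, adjusted p 0.0801), Empty replicate 3 (0.20, adjusted p 0.0625) or SAM1 replicate 3 (0.20, adjusted p 0.0553), nor with quantile normalization (0.12, adjusted p 0.161). Between the lines it was 0.18 (limma, adjusted p 0.0568). It passed without Empty replicate 1 (adjusted p 0.031), Empty replicate 2 (adjusted p 0.041) or SAM2 replicate 1 (0.24, adjusted p 0.0196), and on recovered reads by edgeR (0.24, adjusted p 0.0117) and DESeq2 (0.25, adjusted p 0.0263). Without replicate 2 of every group it came down to 0.12 and was not called.

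*Mnt* (ENSMUSG00000000282.14, chr11:74721338-74736836, plus strand) encodes an antagonist of Myc present in dividing and resting cells alike. Its normalized counts were 1933, 1876 and 1843 in Empty, 2372, 2166 and 2240.3 in SAM1, and 2343, 2213 and 2338 in SAM2. All 6 libraries labelled Hnrnpk_SAM were above Empty, and the lines overlapped. The log2 fold changes were 0.26 in SAM1 (limma, adjusted p 6.63e-05) and 0.29 in SAM2 (limma, adjusted p 3.22e-05), with 0.025 between the lines (95% interval -0.064 to 0.11, limma, adjusted p 0.616).

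*Mga* (ENSMUSG00000033943.17, chr2:119727694-119800062, plus strand) encodes a very large partner of Max that is a DNA-binding subunit of a Polycomb complex. Its normalized counts were 5111, 4018 and 4769 in Empty, 4041, 3425 and 4173 in SAM1, and 5255, 5038 and 5424 in SAM2. Each line overlapped with Empty, and SAM2 lay above SAM1. The lines differed by 0.44 (limma, adjusted p 0.000497). Against Empty the log2 fold change was -0.25 in SAM1 (limma, adjusted p 0.0135) and 0.18 in SAM2 (95% interval 0.0053 to 0.36, limma, adjusted p 0.062). The SAM1 call was lost without Empty replicate 1 (-0.18, adjusted p 0.0617), Empty replicate 3 (-0.23, adjusted p 0.0566) or SAM1 replicate 2 (-0.17, adjusted p 0.0534), and with quantile normalization (-0.17, adjusted p 0.0637). The SAM2 value passed without Empty replicate 1 (0.26, adjusted p 0.0121), without SAM1 replicate 2 (adjusted p 0.0212) and with quantile normalization (0.21, adjusted p 0.0277). Without Empty replicate 2 it came down to 0.085 and was not called.

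Replicate 2 was the lowest library of its group for *Mga* in all 3 groups, and the highest for *Mxd3*. These have the longest and the shortest canonical transcripts of the network, of 13946 and 1360 bases. The deviation of *Mga* from its group mean on the log2 scale was -0.20 in Empty replicate 2, -0.17 in SAM1 replicate 2 and -0.056 in SAM2 replicate 2, and that of *Mxd3* was 0.22, 0.10 and 0.15. When listed genes were split into 10 groups by transcript length, the longest had median deviations of -0.082, -0.095 and -0.025 in the same libraries, and the shortest 0.060, 0.079 and 0.023. Without replicate 2 of every group, an alternative chosen after seeing the data, *Mga* passed in SAM2 (0.11, limma, adjusted p 0.0137) and *Mxd1* did not pass in SAM1 (0.18, limma, adjusted p 0.0682).

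**Figure D3:**
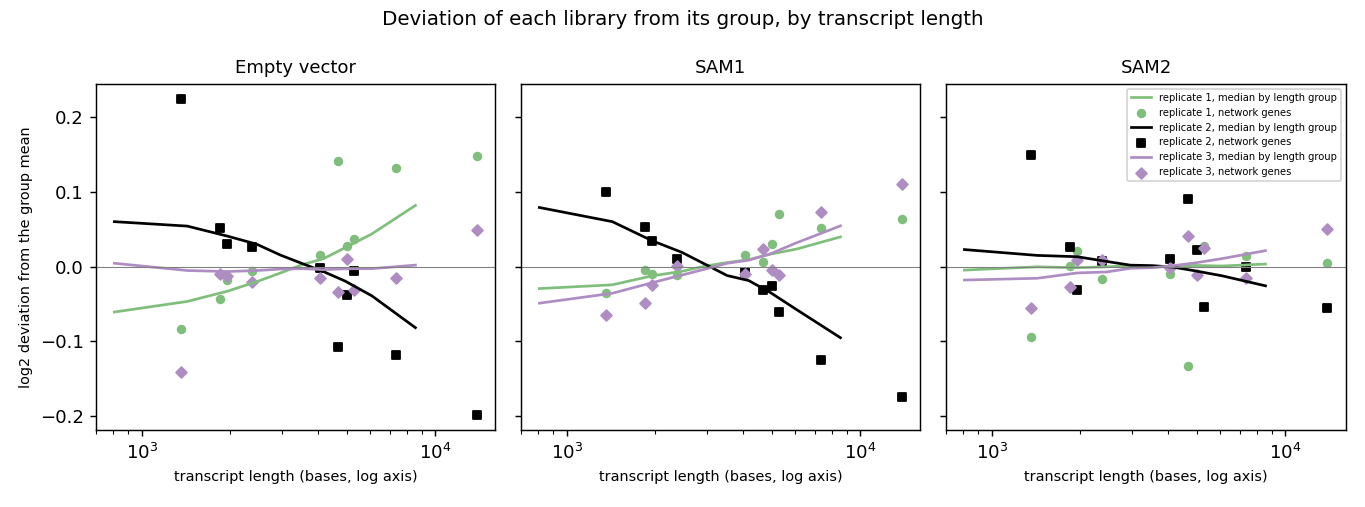
Log2 deviation of each library from the mean of its group (vertical axis) against transcript length in bases (horizontal axis), by replicate, for genes grouped by length and for the network genes. Replicate 2 went down with length in all 3 groups, least in SAM2.

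Levels of different genes were compared per kilobase of canonical transcript. In Empty, *Myc* had 6248 ± 105 normalized counts per kb, *Max* 2191 ± 39.9, *Mlx* 1506 ± 51.01 and *Mxd4* 1389.9 ± 15.1. Below them came *Mxi1* with 461 ± 10.9 normalized counts per kb, *Mnt* with 357 ± 8.63, *Mga* with 332 ± 40.1, *Mlxip* with 307 ± 27.0, *Mxd3* with 81.1 ± 11.5 and *Mxd1* with 76.8 ± 6.94. Neighbours in this order were apart in all Empty libraries except *Mnt* with *Mga*, *Mga* with *Mlxip*, and *Mxd3* with *Mxd1*. In SAM1 *Mnt* (428 ± 19.8 per kb) stood above *Mxi1* (399 ± 7.97), and *Mlxip* (274 ± 20.2) overlapped with *Mga* (278 ± 28.6) and *Mxd3* (241 ± 14.99). In SAM2 *Mxd4* (1239 ± 8.81 per kb) stood above *Mlx* (1159 ± 21.5), and no neighbours overlapped. Over the length of all exons of a gene *Mlx* ranked above *Max*, *Mnt* above *Mxi1* and *Mxd1* above *Mxd3* in Empty, so these orders depend on the transcript chosen. Exon bases shared with genes on the opposite strand were most in *Mlx* (1109), *Mxd3* (876) and *Mxd4* (514). Their part in the levels and shares per kb was not tested.

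Among the 7 genes for partners of Max, *Myc* held 69.8 ± 0.724% of the summed level per kb in Empty, 62.8 ± 0.625% in SAM1 and 67.7 ± 0.0508% in SAM2. The 4 Mxd genes together held 22.5 ± 0.211%, 26.1 ± 0.239% and 23.0 ± 0.356%. The share of *Myc* thus lay below Empty in every library of both lines, and furthest in SAM1. Within the Mxd genes *Mxd4* held 69.2 ± 0.148% in Empty, 56.0 ± 0.334% in SAM1 and 61.2 ± 0.839% in SAM2, and *Mxd3* held 4.04 ± 0.580%, 14.6 ± 0.864% and 10.95 ± 0.786%. The level of *Myc* per kb was 2.85 ± 0.0211 times that of *Max* in Empty, 2.10 ± 0.0370 times in SAM1 and 3.29 ± 0.0859 times in SAM2, so the lines lay on opposite sides of Empty. With the length of all exons the share of *Myc* was 76.0% in Empty, 68.9% in SAM1 and 73.7% in SAM2. These shares are given without a test, and RNA shares are not shares of protein.

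**Figure D4:**
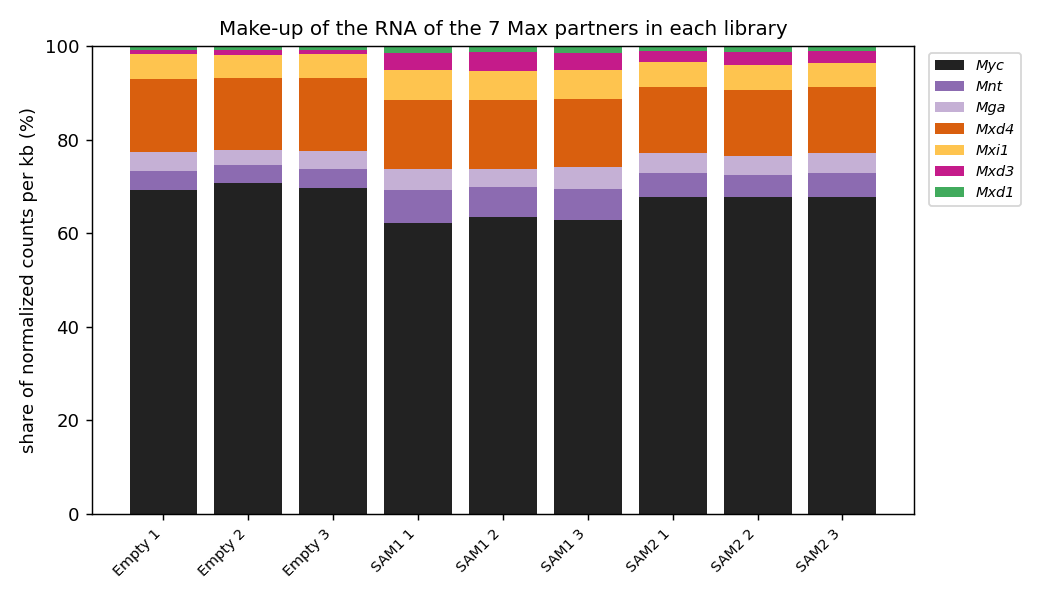
Share of each of the 7 Max partner genes in their summed normalized counts per kb (vertical axis, percent) in each of the 9 libraries. *Myc* held a mean of 69.8% in Empty, 62.8% in SAM1 and 67.7% in SAM2, and the band of *Mxd3* was wider in both lines.

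Between the lines 5 of the 10 genes were called, against 60.3% of all genes, and all 5, *Myc*, *Mga*, *Mxd4*, *Mxi1* and *Mlx*, were higher in SAM2 (31.1% of all genes were called higher and 29.2% lower). The libraries of SAM2 lay above those of SAM1 in 7 network genes and below them in 1, *Max*, against 34.8% and 33.4% of all genes, 68.2% together. The median log2 difference of the members was 0.17, and that of all genes -0.0075. Over the 9 libraries Pearson's r of the log2 levels was 0.982 between *Myc* and *Mxd4*, 0.960 between *Myc* and *Mxi1*, -0.925 between *Max* and *Mnt* and -0.927 between *Mxd3* and *Mlx*. With 3 groups of 3 libraries these values mostly restate the group means, and 61 listed genes had r above 0.99 with *Myc*. The 5 closest to *Myc* were *Cars* (r = 0.999), *Psph* (0.999), *Leprotl1* (0.998), *Hacd3* (0.998) and *Mtfr1* (0.998). *Psph*, an enzyme gene of serine synthesis, had mean normalized counts of 6388 in Empty, 2469.7 in SAM1 and 5825 in SAM2.

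The study treats both lines as one group. A fit of this kind counts the 6 libraries of 2 lines as separate samples, and the difference between the lines enters their spread. Taken that way in a fit with 2 groups, 6 of the 10 genes were called, 3 higher and 3 lower, against 53.9% of all genes (26.8% higher, 27.0% lower). The median of the members was -0.10, and that of all genes 0.0087. *Mxd3* had a log2 fold change of 1.51 (limma, adjusted p 3.17e-06), *Mxd1* 0.30 (adjusted p 0.0171) and *Mnt* 0.27 (adjusted p 0.000446). *Mlx* had -0.46 (limma, adjusted p 0.000181), *Mxd4* -0.37 (adjusted p 0.0256) and *Max* -0.24 (adjusted p 0.000476). The call of *Mxd4* was lost without Empty replicate 1, 2 or 3 (adjusted p 0.0763, 0.0717 and 0.0679), and that of *Mxd1* without Empty replicate 2 or 3 (adjusted p 0.0805 and 0.0641) and with quantile normalization (adjusted p 0.0752). *Myc* had -0.36 with a standard error of 0.17 and was not called (limma, adjusted p 0.0948), although its lines lay apart from Empty. DESeq2 on recovered reads called it at -0.39 (adjusted p 0.0466). *Mga* (-0.035), *Mxi1* (-0.10) and *Mlxip* (-0.10) were not called. All 6 libraries lay above Empty in 3 network genes and below it in 4, against 25.9% and 27.2% of all genes, 53.1% together.

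Each gene was also set beside the listed genes within 1 Mb. *Mnt* and *Mxd1* lay near their surroundings: the 29 neighbours of *Mnt* had a median log2 fold change of 0.27 in SAM1 and 0.36 in SAM2, beside 0.26 and 0.29 for the gene, and the 29 neighbours of *Mxd1* had 0.25 and 0.31, beside 0.22 and 0.39. The 46 neighbours of *Mlxip* had -0.15 and -0.19, beside -0.16 and -0.042. *Mxd3* at 1.57 and 1.45 was far from the medians of its 37 neighbours at -0.12 and -0.30. The 32 neighbours of *Mxd4* had -0.11 and 0.011, the 63 of *Mlx* -0.13 and -0.044, and the 14 of *Max* -0.0024 and -0.012, all closer to 0 than the gene. *Mga* lay below the median of its 42 neighbours in both lines, at -0.25 beside 0.44 in SAM1 and 0.18 beside 0.35 in SAM2. The 14 neighbours of *Mxi1* had -0.078 and -0.30. *Myc* had only 2 listed neighbours, with medians of -0.41 and -0.56, while the 595 other listed genes of its chromosome had 0.19 and 0.32. Of these 2 neighbours 1 was called lower in SAM1, and in SAM2 1 was called higher and 1 lower. The part of the neighbours in the members' values was not tested.

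**Figure D5:**
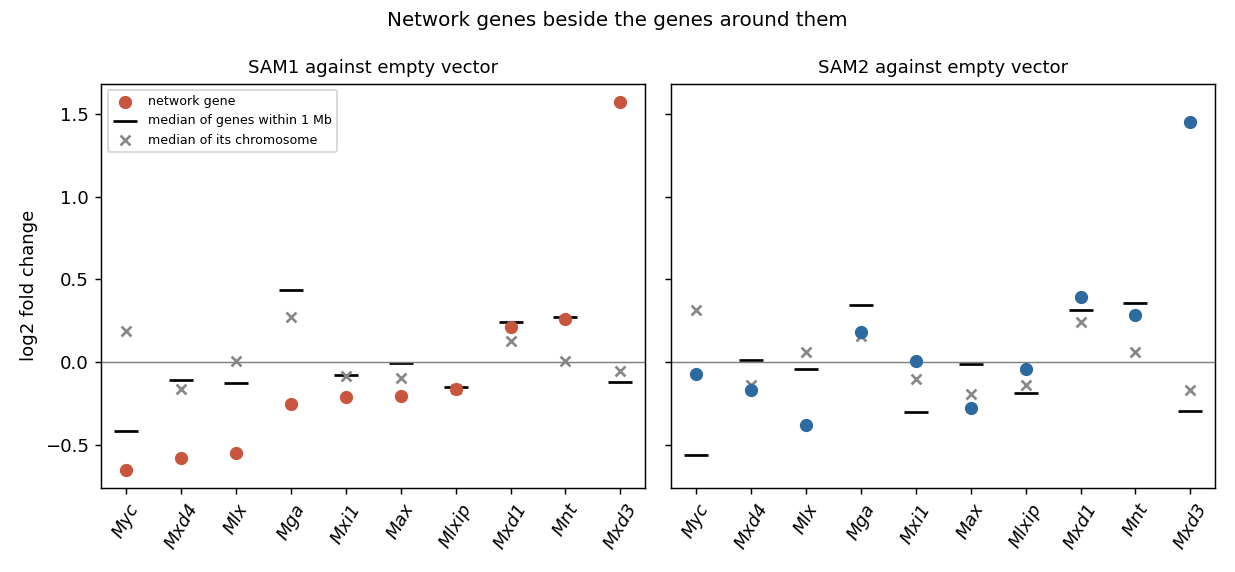
Log2 fold change of each network gene, the median of listed genes within 1 Mb and the median of its chromosome, in SAM1 and in SAM2 against Empty. *Mnt* and *Mxd1* lay near the median of their neighbours, whereas *Mxd3* lay above and *Mlx* below theirs.

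Of 8 further partners, 7 were listed and all of these were called in both lines, 2 higher and 5 lower. Calls covered 74.3% of all genes in SAM1 and 70.5% in SAM2. *Mycl*, a paralog of *Myc*, had 39.9, 29.4 and 25.7 in Empty, 254, 256 and 247 in SAM1, and 199.8, 198 and 221 in SAM2, as normalized counts. It rose by 2.98 (limma, adjusted p 2.67e-10) and 2.69 (limma, adjusted p 1.10e-09) as a log2 fold change. *Mycn*, the other paralog, had means of 57.2 ± 4.36 in Empty, 33.7 ± 6.77 in SAM1 and 20.6 ± 4.62 in SAM2 and fell in both, with -0.76 (limma, adjusted p 0.00385) and -1.45 (limma, adjusted p 2.38e-05). Both paralogs had few counts beside *Myc*. *Mycbp2*, a very large ubiquitin ligase gene named for binding Myc, rose (0.51 and 0.89), and *Usf1* (-0.17 and -0.29) and *Usf2* (-0.44 and -0.41), whose proteins bind the same E-box without Max, fell.

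Cofactors of the network were called in both directions, as were genes at large. Among all genes 37.3% were called higher and 36.9% lower in SAM1, and 35.2% and 35.3% in SAM2. Of 15 coactivator genes of Myc, 4 were called higher and 3 lower in SAM1, and 5 higher and 2 lower in SAM2, with medians of 0.054 and 0.025. The acetyltransferase gene *Ep300* (0.44 and 0.71) rose, and *Ruvbl2* (-0.46 and -0.18), a helicase subunit of chromatin complexes, fell. Of 16 genes of the Sin3, HDAC and NCoR corepressors, which serve the Mxd proteins and Mnt, 4 were called higher and 3 lower in SAM1, and 2 higher and 3 lower in SAM2, with medians of 0.0013 and 0.043. *Ncor1* (0.27 and 0.65) rose and the Sin3 subunit gene *Suds3* (-0.32 and -0.19) fell. Of 13 partners of Mga in its Polycomb complex, 3 were called higher and 6 lower in SAM1, and 4 higher and 4 lower in SAM2, with medians of -0.041 and 0.0031. *L3mbtl2* rose, with mean normalized counts of 1565 ± 45.2 in Empty, 2381 ± 30.8 in SAM1 and 2337 ± 53.6 in SAM2. *E2f6* fell, with 1498 ± 67.0 in Empty, 915 ± 43.6 in SAM1 and 886 ± 28.6 in SAM2, and *Pcgf6* (-0.54 and -0.33) fell too.

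Of 22 genes that act on the stability of the Myc protein, 10 were called higher and 8 lower in SAM1, and 12 higher and 5 lower in SAM2, with medians of 0.026 and 0.18. Over all genes 37.3% were called higher and 36.9% lower in SAM1, and 35.2% and 35.3% in SAM2. The mitotic kinase genes *Aurka* (1.49 and 1.29) and *Plk1* (1.20 and 1.23), whose proteins are known to stabilise Myc proteins, rose, as did *Skp2* (0.57 and 0.66), a ubiquitin ligase subunit. *Ppp2r5a* (-0.71 and -0.34), of the phosphatase step, and *Gsk3a* (-0.25 and -0.27), a kinase gene, fell. These libraries measure RNA and not the protein.

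Genes known to answer to Myc did not move as one group. For comparison, 37.3% of all genes were called higher and 36.9% lower in SAM1, and 35.2% and 35.3% in SAM2. Of 34 genes on record as induced by Myc, 10 were called higher and 18 lower in SAM1, and 12 higher and 17 lower in SAM2, with medians of -0.12 and -0.090. *Nop58*, a nucleolar protein gene, fell, with mean normalized counts of 11111 ± 245 in Empty, 7447 ± 234 in SAM1 and 7926 ± 112 in SAM2. *Nme2* (-0.32 and -0.34) and the glucose transporter gene *Slc2a1* (-0.31 and -0.43) fell as well, while *Prmt5* (0.70 and 0.70), *Apex1* (0.71 and 0.62) and *Shmt1* (0.54 and 0.62) rose. Of 15 genes on record as repressed by Myc, 4 were called higher and 10 lower in SAM1, and 5 higher and 5 lower in SAM2, with medians of -0.45 and -0.027. *Gadd45b* (-0.85 and -0.92), *Cdkn2b* (-0.74 and -0.75) and *Cdkn1a* (-0.24 and -0.34), genes of growth arrest, fell, whereas *Gas1* (0.37 and 0.10), another gene of growth arrest, rose. In SAM2 the call of *Gas1* was lost without Empty replicate 1 or 3 (limma, adjusted p 0.051 and 0.0757). It was also lost there without SAM2 replicate 2 or 3 (limma, adjusted p 0.0799 and 0.0616). *Pdgfrb* (0.94 and 0.54), a growth factor receptor gene, and *Ndrg2* (0.71 and 0.38) rose too.

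Of 9 genes regulated by Mlx and the Mondo proteins, 8 were listed, and of these 3 were called higher and 5 lower in SAM1, and 2 higher and 5 lower in SAM2, with medians of -0.22 and -0.21. The shares of all genes were 37.3% higher and 36.9% lower in SAM1, and 35.2% and 35.3% in SAM2. The arrestin-like genes went apart. *Arrdc4* fell, with mean normalized counts of 699 ± 17.2 in Empty, 336 ± 28.4 in SAM1 and 269.6 ± 27.2 in SAM2, and *Arrdc3* rose, with 328 ± 7.45 in Empty, 1609.8 ± 31.3 in SAM1 and 616 ± 26.5 in SAM2. *Txnip*, their relative and the best known target of MondoA, was named after its values were seen. It had 1785, 1828 and 1917 in Empty, 1174, 1253 and 1129 in SAM1, and 1922, 1936 and 1923 in SAM2, as normalized counts, and its log2 fold change was -0.64 in SAM1 (limma, adjusted p 1.83e-08) and 0.064 in SAM2 (95% interval -0.030 to 0.16, limma, adjusted p 0.203).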

How the data were processed

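PolyA+ RNA of 9 libraries went through a directional library kit and was read in pairs of 43 bases each. Per the labels and methods, the authors checked reads with FastQC (0.11.0), aligned them to GRCm39 with TopHat2, Bowtie2 and SAMtools (up to 3 mismatches and 20 multihits), counted them with HTSeq on Gencode vM29, scaled them with DESeq2 and kept genes above 10 in at least 30% of samples. What was deposited is a signal, the count divided by a size factor. All 15184 genes met that filter.

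Groups came from the sample titles. The members, gene lists and tests were chosen with earlier results of these data known. limma (3.58.1, R 4.3.3, eBayes with trend) was fitted to log2(value + 1), two-sided, and p-values were adjusted over all genes. Fold changes on this scale understate the change of low genes. In 8 libraries 100% of values were whole multiples of 1 read (tolerance 0.01), and edgeR (4.0.16) and DESeq2 (1.42.0) were run on these reads as alternatives, without SAM2 replicate 1. Other alternatives were pseudocounts of 0.5 and 5, only genes above 10 in every library, quantile normalization, the replicate block, each library left out, the mean of the lines and, added after seeing the data, replicate 2 left out of every group and the length of all exons.

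All network genes are named. From each list at most 3 higher and 3 lower genes with the smallest adjusted p over both lines as one group could be named, besides genes that overlap a member and the 5 closest to *Myc*. Some genes that this rule names are not reported here. Positions and lengths are from GENCODE vM39 on GRCm39, where 14791 gene names were found once.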

Additional observations from a re-analysis of the deposited data

Results flagged for a closer look

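The effects of the lines against Empty differed from each other in 5 network genes, by limma's test of the difference itself. A call between the lines was common, at 60.3% of all genes. SAM2 was higher than SAM1 by 0.58 in *Myc*, 0.44 in *Mga*, 0.41 in *Mxd4*, 0.21 in *Mxi1* and 0.17 in *Mlx* on the log2 scale. In each of them the 3 libraries of SAM2 lay above the 3 of SAM1, as they did in 34.8% of all genes. The 5 genes were picked by the test on these same libraries, so this adds no separate support. Groups of 3 libraries were not searched for single outlying libraries.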

How the results depend on the processing

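Of 28 network values called over the 4 comparisons, 22 kept their direction and their side of the threshold in every alternative, and 6 did not: *Myc* in SAM2, *Mga*, *Mlxip* and *Mxd1* in SAM1, and *Mxd1* and *Mxd4* over both lines. The number of network genes called ranged from 7 to 10 in SAM1, 6 to 8 in SAM2, 5 to 7 between the lines and 4 to 8 over both lines. Quantile normalization turned the sign of *Myc* in SAM2 (0.028), *Mxi1* in SAM2 (-0.0079), *Mnt* between the lines (-0.030) and *Mga* over both lines (0.020), and of *Rbbp4*, a corepressor subunit gene, in SAM1 (0.079) and over both lines (0.034). With single libraries left out, *Mxi1* in SAM2 ranged from -0.014 to 0.019, *Mlxip* in SAM2 from -0.10 to 0.025, *Mnt* between the lines from -0.0049 to 0.061 and *Mga* over both lines from -0.13 to 0.044. Without replicate 2 of every group *Mxi1* in SAM2 came to -0.026, and neither *Mxd1* (0.24, adjusted p 0.106) nor *Mxd4* (-0.37, adjusted p 0.0873) passed over both lines. With the mean of the lines from the fit with 3 groups, *Myc* (adjusted p 4.85e-09) and *Mxi1* (adjusted p 0.00591) passed over both lines. *Myc* had -0.36 in both fits, with a standard error of 0.022 there and 0.17 in the fit with 2 groups. The fit with 2 groups counts the difference between the lines as spread. The causes of the other changes were not tested. Counts were fewest for *Mxd3* and *Mxd1*, which limits small differences in these genes.

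The labels do not say what libraries with equal replicate numbers share, and the numbers were not taken as pairs. As a hint from the data, deviations of libraries with equal numbers correlated with r from 0.00237 to 0.117 (mean 0.0531, 9 pairs), those of others with a mean of -0.0265 (18 pairs), and in 15 of 18 combinations of a library with another group the own number was best. With the replicate block *Mga* in SAM2 (0.18, adjusted p 0.000793) and *Mlxip* between the lines (0.12, adjusted p 0.0214) passed, and *Mxd4* over both lines did not (-0.37, adjusted p 0.0603). The block changed no other call of a network gene.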
